A study of Mus musculus with 53 samples.

Results

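The genes described here encode the chains of the collagens, and they were taken as every gene whose symbol reads Col, a type number, the letter a and a chain number. This rule used names and no measured value, and it found 44 genes in each of 3 deposited expression tables, which list 24333, 20160 and 19149 genes. After a filter on low values (above 1 CPM, the read count scaled to library size, in at least 3 libraries) 31, 29 and 29 of the 44 could be tested. In all, 33 passed in at least 1 table, 27 passed in all 3 tables and 11 passed in none.

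Collagens are built from 3 chains wound into a triple helix, and the genes of 1 collagen type are named by type and chain. The fibrillar collagens, type I above all, form the tensile fibres of connective tissue and are made mainly by fibroblasts. Type IV collagen forms the sheet-like network of basement membranes under epithelia and around vessels, where the multiplexins (types XV and XVIII) also lie, while type VI forms beaded filaments beside those membranes and fibril-associated collagens such as types XII, XIV and XVI decorate the surface of fibres. In a mammary tumour, stromal cells and carcinoma cells can each contribute collagen transcripts, and in bulk RNA fewer cells of a type and less RNA per cell cannot be told apart.

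The libraries came from tumours of the TA3 Hauschka line, a murine mammary tumour line that was used as a form without (WGD-) and a form with (WGD+) whole genome doubling, a duplication of the entire chromosome set. Cells in Matrigel had been placed in the inguinal mammary fat pad, the hosts being females aged 6 weeks, and total RNA of the tumour was sequenced as poly(A) libraries. The labels do not say whether each form is a single clone, nor that each library is a separate mouse, so p-values measure only the spread between these samples, which may in part be technical.

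The host was either A/J, an inbred strain with an intact immune system, or a mouse titled NSG, for which the growth protocol gives an immunodeficient MloySzJ strain on the NOD.Cg background, with the Prkdcscid and Il2rgtm1Wjl alleles and the 1Eav transgene, in which the CMV promoter drives IL3, CSF2 and KITLG. In the first experiment tumours of both forms in both hosts were given vehicle or YM-155, a small molecule known as a survivin suppressant, for 14 days, in 8 groups of 3 libraries. The second, in A/J hosts only, gave an isotype antibody, an antibody to PD-L1 or an antibody to CD8 for 14 days to tumours of both forms, in 6 groups of 3 libraries except WGD- anti-CD8 with 2. The third took A/J tumours of both forms, with no treatment named, at day 8 or day 14, in 4 groups of 3. Form was read from the titles, since 12 of 53 libraries had another form in the genotype field than in the title.

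Library depth, to 3 digits, was 3230000 to 7740000 reads in the YM-155 experiment, 9550000 to 15400000 in the antibody experiment and 5240000 to 12200000 in the time course. Collagen chains together took 0.147% to 0.617%, 0.155% to 0.494% and 0.0993% to 1.09% of the CPM. The summed level of 6 epithelial markers was 9.49 log2 or more in every library, with none of them at 0 throughout a group. In 4 libraries the best correlation with any other library of the table fell short of the median by over 3 median absolute deviations: A/J WGD- vehicle 1 and 2, A/J WGD- day 8 library 1 and A/J WGD+ day 8 library 3. A/J WGD- vehicle 2 carried liver markers at a summed 10.5 log2, A/J WGD+ day 8 library 3 skeletal muscle markers at 14.2, and A/J WGD- day 8 library 1 adipocyte markers at 10.1 and fibroblast markers at 10.2. Where collagen chains were called in a comparison that holds these libraries, the calls are given with and without them. Comparisons with no called chain, and the results of all other listed genes, are given with these libraries only.

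The chains that did not pass the filter in any table were Col4a3, Col4a4 and Col4a6 of the basement membrane group, Col6a4 and Col6a6 of the beaded filament group, Col8a2 and Col10a1 of the short-chain group, the fibril-associated Col19a1 and Col22a1, the transmembrane Col25a1 and the unclassed Col26a1. Col4a3, a chain of the kidney and lung basement membranes, reached at most 5, 6 and 7 reads in a library of the 3 tables. Col4a6 reached 61 reads in 1 library, A/J WGD- day 8 library 1, and no more than 3 in any library of the other experiments. Col2a1, the main chain of cartilage, and Col11a1 could be tested in the YM-155 experiment only, Col24a1 and Col6a5 in the antibody experiment only, and Col9a2 and Col28a1 in the YM-155 and time-course experiments. Col6a5 passed in the antibody table with a maximum of 115 reads in WGD- anti-PD-L1 library 1.

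Levels of different genes were compared per length, as the median CPM per kilobase of exon over the libraries of an experiment. In the YM-155 experiment Col18a1, the multiplexin from which endostatin is cleaved, stood highest at 84.4 CPM per kb, followed by Col6a1 at 55.9, Col4a1 at 46.4, Col16a1 at 37.8 and Col4a2 at 34.2. Col1a1, the main chain of type I collagen, came next at 32.1, while Col3a1, the single chain of type III collagen, was at 15 with a range from 0.615 to 64.7. The order differed between experiments: Col6a1 led at 58.8 in the antibody experiment, ahead of Col18a1 at 50.9 and Col1a1 at 40, and in the time course Col18a1 at 42.7 and Col1a1 at 42 were close. In that last table Col1a1 ranged from 9.32 to 337 and Col3a1 from 1.31 to 312 CPM per kb, so the ranges of neighbours in the order overlap widely.

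**Figure D1:**
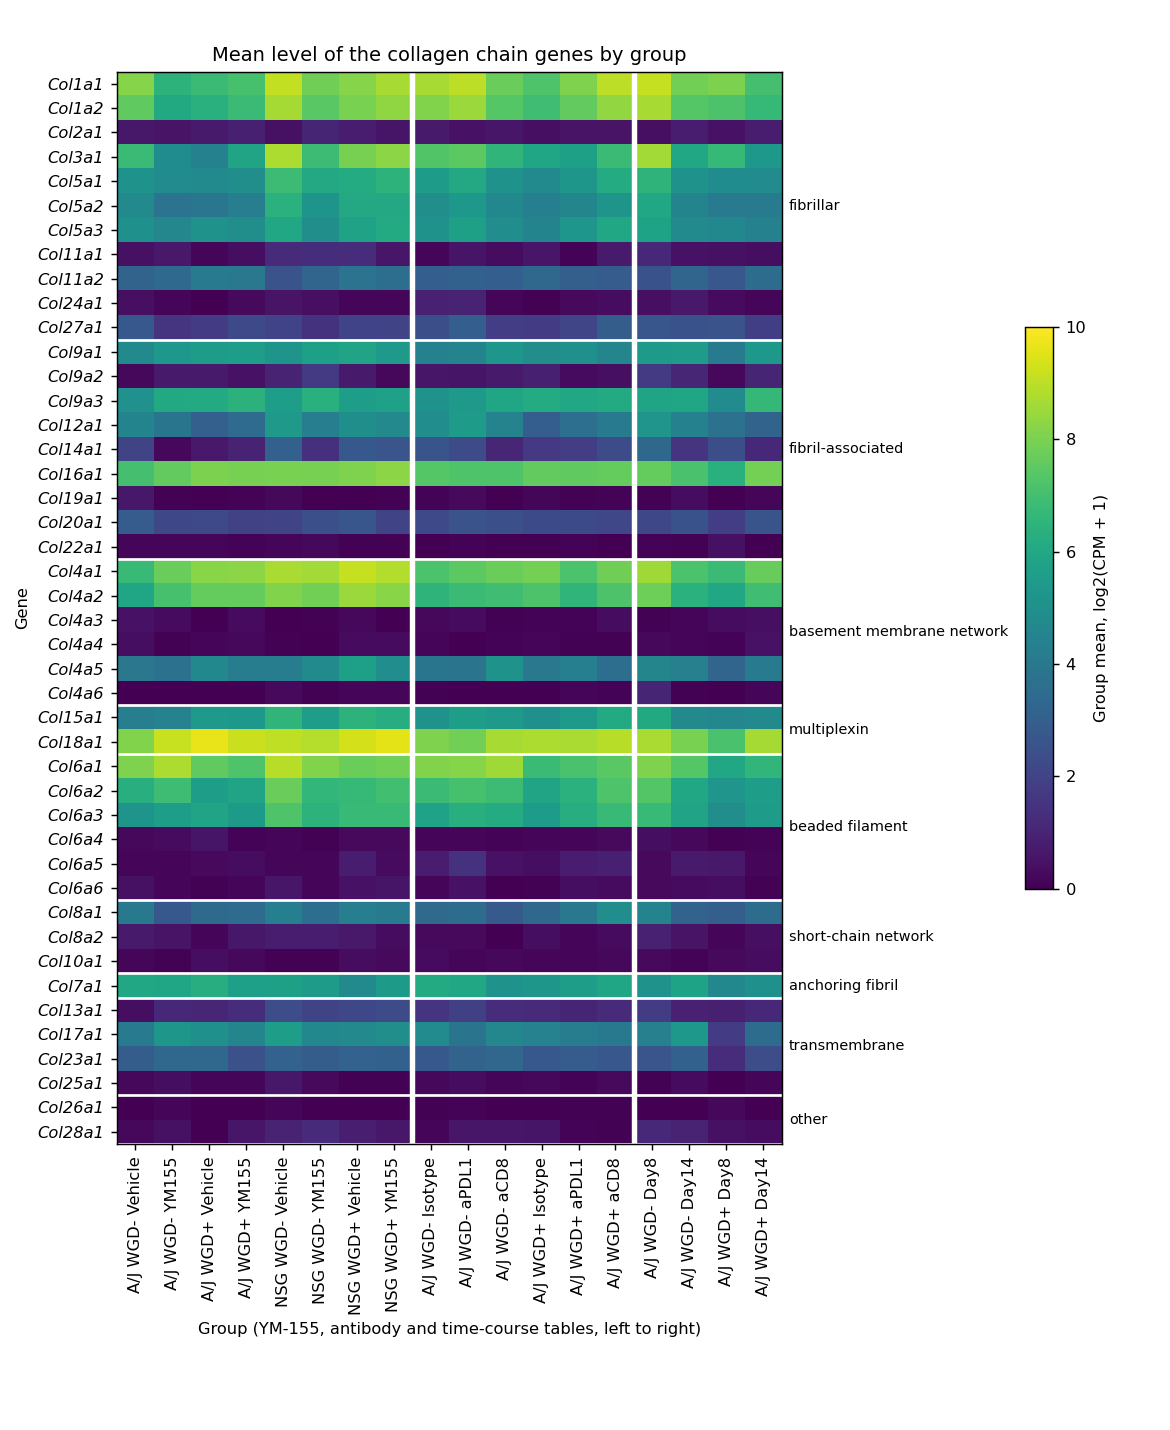
Mean level of each of the 44 collagen chain genes, in log2(CPM + 1), for the 18 groups of the YM-155, antibody and time-course experiments (columns, left to right), with chains ordered by structural class and colour giving the level. Col18a1, Col6a1, Col16a1, Col4a1, Col4a2 and the type I chains are high in all groups, and the 11 chains that passed no filter are near 0.

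The share of all collagen CPM taken by the 11 fibrillar chains was 24.6% in the median library of the YM-155 experiment and ran from 8.91% in A/J WGD- vehicle 3 to 71.6% in A/J WGD- vehicle 2, so both ends came from the same group. In the antibody experiment it was 16.2% to 68.6% with a median of 31.1%, and in the time course 10.5% to 70.1% with a median of 30.4%. Basement membrane chains took 5.24% to 30.7%, 8.15% to 32.1% and 7.82% to 24.8% in the 3 experiments. Beaded filament chains took 6.53% to 30.3%, 7.98% to 34.5% and 7.51% to 24.6%.

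Several chains lie beside a partner in the genome (mm10, GENCODE M21). Col4a1 (chromosome 8, 11198423 to 11312826, minus strand) and Col4a2 (11312805 to 11449287, plus strand) are arranged head to head, and their first exons share 22 bases on opposite strands. Those bases are printed because they are the stretch from which both genes start, on the plus strand at chr8:11312805-11312826, and the capitals mark GGGCGG, the GC box:
Col4a1 and Col4a2: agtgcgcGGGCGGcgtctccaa
Col3a1 (chromosome 1, 45311538 to 45349706, plus strand) lies tail to tail with Col5a2, with 24614 bases between them. Col6a2 and Col6a1 lie on the same strand of chromosome 10 with 85161 bases between them. Among the called chains Col4a1, Col4a2, Col4a5, Col5a1, Col9a3, Col12a1, Col13a1, Col14a1, Col15a1 and Col18a1 each overlap an annotated gene on the opposite strand, and whether reads were counted by strand is not given in the sources used here, so reads of those partners cannot be told apart from theirs.

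The windows upstream of Col3a1 and Col18a1 are shown next, because Col3a1 varied most between replicate libraries and Col18a1 had the highest level per length in the YM-155 experiment. Each is given 5′ to 3′ on the strand of its gene, from RefSeq on GRCm38.p6. For Col3a1 (chr1:45311288-45311537, plus strand) the capitals mark TATAAA, and for Col18a1 (chr10:77166549-77166780, minus strand) they mark ATTGG, the reverse complement of CCAAT, and CCGCCC, that of GGGCGG:
Col3a1: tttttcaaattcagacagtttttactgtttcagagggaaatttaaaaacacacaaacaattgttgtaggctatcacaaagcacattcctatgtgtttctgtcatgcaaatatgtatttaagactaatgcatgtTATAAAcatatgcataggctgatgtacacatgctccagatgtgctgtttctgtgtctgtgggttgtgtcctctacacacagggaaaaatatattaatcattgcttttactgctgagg
Col18a1: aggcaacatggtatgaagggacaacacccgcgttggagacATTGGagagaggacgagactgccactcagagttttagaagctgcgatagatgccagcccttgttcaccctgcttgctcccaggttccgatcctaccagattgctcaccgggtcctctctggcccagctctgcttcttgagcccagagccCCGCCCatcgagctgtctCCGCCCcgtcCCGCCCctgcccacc
Of the 44 collagen genes 35 matched a RefSeq promoter entry by symbol, giving 38 windows of 250 bases. GGGCGG was present on either strand in 22 of 38 windows (57.9%), against 32.7% of all 32851 promoter windows. CCAAT was present in 13 of 38 (34.2%), against 33.8% of all, and TATAAA in 5 of 38 (13.2%), against 12.4% of all. Such matches describe letters in the window and not bound sites.

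The pairs Col4a1 with Col4a2 and Col1a1 with Col1a2, each of which assembles into 1 molecule, kept a close ratio across libraries (the plot of chain pairs). Col4a1 per kilobase was 1.39, 1.4 and 1.46 times Col4a2 in the median library of the YM-155, antibody and time-course experiments, and the ratio never left 1.25 to 2.01. The SD of the log2 difference between them was 0.116, 0.0857 and 0.167, while Col4a1 itself varied with an SD of 0.817, 0.426 and 0.82. Col1a1 per kilobase was 2.45, 2.73 and 2.77 times Col1a2, and this became 1.17, 1.3 and 1.32 when the longest transcript was used as length, so this ratio depends on the length chosen. The SD of the log2 difference of the type I pair was 0.212, 0.208 and 0.255 against 1.18, 0.981 and 1.46 for Col1a1. The pair Col6a1 and Col6a2, which also share a molecule, was looser, with an SD of the log2 difference of 0.536, 0.561 and 0.461 against 0.708, 0.786 and 0.969 for Col6a1 itself. Col9a1 and Col9a3 had 0.456, 0.501 and 0.776 against 0.398, 0.614 and 0.873 for Col9a1, so in the YM-155 experiment their difference varied more than Col9a1 did. These are descriptions over libraries that share groups and depth.

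**Figure D2:**
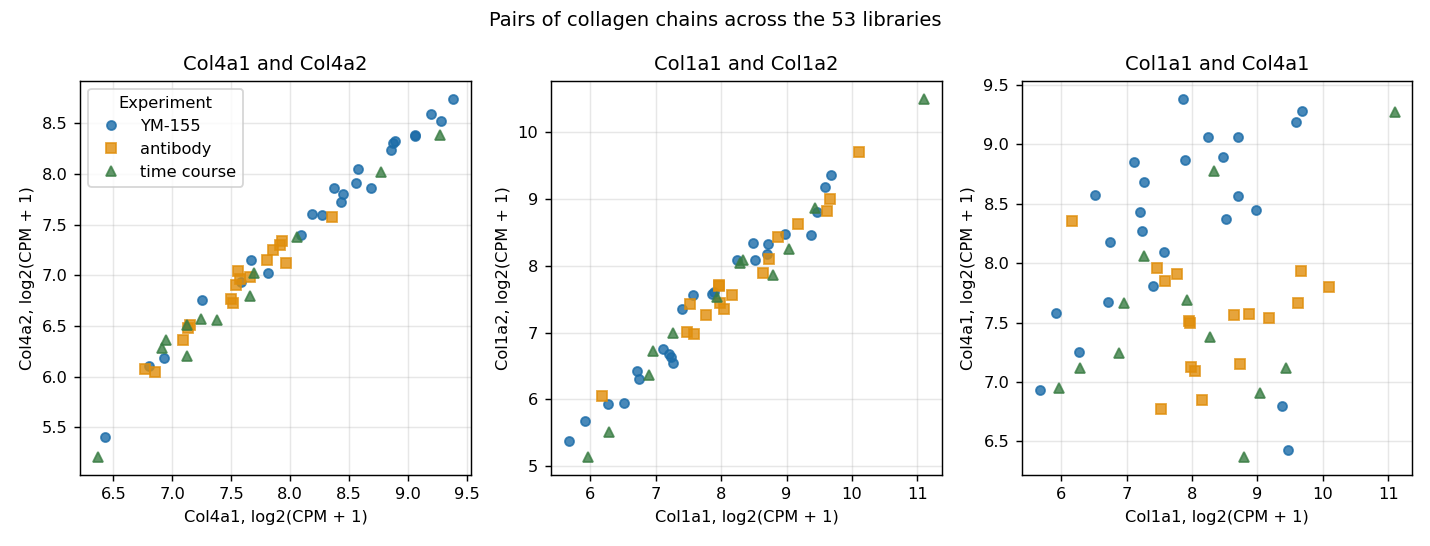
Level of 1 chain against its partner, both in log2(CPM + 1), with 1 point per library for the 53 libraries and the symbol giving the experiment. Col4a1 with Col4a2 and Col1a1 with Col1a2 lie in narrow bands, and Col1a1 with Col4a1, chains of different molecules, scatters widely.

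Replicate libraries of some groups differed widely in the fibrillar chains of types I and III. In the YM-155 experiment the within-group SD, pooled over the groups, was 1.41 log2 for Col3a1, at the percentile 99.9 of all tested genes. It was 0.94 for Col1a1 (percentile 99.2) and 0.87 for Col1a2 (percentile 98.8). The groups were uneven. For Col3a1 the SD was 3.47 in A/J WGD- vehicle, which holds libraries that stand apart, 0.29 in A/J WGD+ vehicle and 0.51 in NSG WGD- vehicle. For Col1a1 it was 2.17, 0.35 and 0.45. Col3a1 also spread in NSG WGD- YM-155, at 8.36, 5.36 and 6.8. The basement membrane chains Col4a1 and Col4a2 had 0.44 (percentiles 81.9 and 82.3), Col18a1 had 0.42 (79.8) and Col16a1, a fibril-associated chain, had 0.26 (44.7). The same order of Col3a1 over Col1a1 over Col4a1 over Col16a1 was found in the time course, with 1.9, 1.46, 0.5 and 0.39, while in the antibody experiment Col3a1 had 1.3, Col1a1 0.83, and Col4a1 and Col16a1 0.35 each.

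The first comparison asked how tumours of the same form differ between hosts. In WGD- tumours given vehicle, 10 of 31 collagen chains were lower in A/J than in NSG hosts and none was higher, by limma on the deposited log2 values with an adjusted p under 0.05 over all genes. Of all 13826 genes tested 18.3% were called lower, a smaller share than among the chains, and that excess was not tested. The 10 were the basement membrane chains Col4a1 and Col4a2, the multiplexins Col15a1 and Col18a1, the beaded filament chains Col6a2 and Col6a3, the fibril-nucleating Col5a1, the fibril-associated Col16a1, the transmembrane Col13a1 and Col28a1, a chain with von Willebrand factor domains. The median difference over the 31 chains was -0.92 log2 and 26 of them were negative, while the median over all genes was -0.03.

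Col4a2 stood at 6.11, 5.41 and 6.19 log2(CPM + 1) in the 3 A/J libraries and at 7.91, 8.59 and 7.8 in the NSG libraries, a difference of -2.19 (SE 0.33, adjusted p = 0.00019). Col4a1 stood at 6.8, 6.43 and 6.93 against 8.56, 9.19 and 8.45, a difference of -2.02 (SE 0.33, adjusted p = 0.000305). The A/J libraries were low for both chains without exception, and A/J vehicle 2 was the lowest. Col15a1, a chain of the zone beneath basement membranes, was at 4.63, 3.97 and 4.22 against 6.44, 7.05 and 6.19, a difference of -2.28 (SE 0.43, adjusted p = 0.000918). Col6a3, the longest chain of the beaded filament, was at 5.67, 4.96 and 4.9 against 6.89, 7.72 and 7.14, a difference of -2.08 (SE 0.31, adjusted p = 0.000176). Neither of these chains had an A/J library that reached the lowest NSG library. Col13a1, a transmembrane collagen, was at 0.226, 0 and 0.93 against 2.29, 2.55 and 2.24, which is close to the detection limit in A/J.

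Col16a1 had a smaller difference of -0.93 (SE 0.2, adjusted p = 0.00142), from 7.18, 6.58 and 7.42 in A/J to 7.99, 8 and 7.99 in NSG. These 6 chains stayed called when any 1 library was left out. Col5a1 (-1.76, adjusted p = 0.0131) and Col6a2 (-1.41, adjusted p = 0.015) held in 4 of the 6 leave-outs, Col18a1 (-0.96, adjusted p = 0.023) in 3 and Col28a1 (-0.76, adjusted p = 0.0397) in 2. The groups did not overlap for any of the 10. Col3a1 was at 8.45, 9.13 and 2.81 in A/J and 8.3, 9.31 and 8.67 in NSG, a difference of -1.96 (SE 1.1, adjusted p = 0.177), and Col1a1 followed the same libraries with -0.92 (SE 0.72, adjusted p = 0.337). For these fibrillar chains A/J vehicle 1 and 2 lay within the NSG range and A/J vehicle 3 lay far below it.

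Without the A/J WGD- vehicle libraries 1 and 2, which stand apart, the A/J side is vehicle 3 alone, whose spread is assumed to be that of the other groups. The count was then 12, and Col13a1, Col16a1, Col18a1, Col28a1 and Col6a2 were no longer among the called chains. Liver markers were called higher in A/J for 4 of 4 tested, at a summed 3.93 to 10.5 log2 against 0.182 to 0.676 in NSG, where Alb, Apoa1, Ttr and Serpina1a were at 0 in every library. Endothelial markers were called lower for 4 of 8, at 5.76 to 6.02 against 6.55 to 6.98. Fibroblast markers were called lower for 4 of 10, at 5.69 to 8.02 against 7.08 to 7.87. Epithelial markers were called higher for 2 of 6, Krt7 and Krt18, at 11.2 to 11.6 against 10.7 to 11, and the part of these lists in the result was not tested.

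The surroundings of the chains were read from lists of genes that make, bind, sense or degrade collagen. Among 16 matrix genes that bind collagen networks, 7 were lower in A/J and none higher, led by Nid2, a nidogen that links laminin to type IV collagen (-2.1, adjusted p = 5.21e-05), and the laminin chains Lama4 (-1.43, adjusted p = 0.000164) and Lamc1 (-1.13, adjusted p = 0.000164), with the tenascin Tnxb at -1.33. Of 26 processing enzymes and chaperones limma called 4 lower, a smaller share than the 18.3% of all genes called lower. They were the prolyl 3-hydroxylase P3h2 (-1.32, adjusted p = 0.00379), the galactosyltransferase Colgalt1 (-0.54), the chaperone Serpinh1 (-0.52) and P4hb (-0.42). Among 8 receptors the discoidin receptor Ddr2 (0.57) and Lair1 (1.68) were higher, and of 10 degradation genes the collagenase Mmp13 (1.98, adjusted p = 0.0285) was higher. The share of all genes called higher in this comparison is not given here.

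In WGD+ tumours given vehicle, 7 of 31 chains were lower in A/J than in NSG, where 5.32% of all genes were called lower, and 1 was higher, where 7.2% were called higher. The lower chains were 3 fibrillar ones (Col3a1, Col5a2, Col11a1), 2 fibril-associated ones (Col12a1, Col14a1), Col6a3 and Col4a5. The exception in direction was Col7a1, the chain of the anchoring fibrils that tie epithelial basement membranes to the stroma. The median over the 31 chains was -0.84 log2, with 24 negative, against 0 over all genes.

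Col3a1 was at 4.33, 4.14 and 4.71 log2(CPM + 1) in the A/J libraries and at 7.93, 7.98 and 7.98 in the NSG libraries, a difference of -3.57 (SE 1.1, adjusted p = 0.042). The gap was wide and each group was tight, but the spread shared over all groups set the error: with only these groups in the fit the adjusted p was 1.09e-07. It was 0.0536 with the replicate block and 0.0644 by voom on recovered reads. Col12a1, which binds type I fibres, was at 3.3, 2.84 and 3.11 against 4.81, 5.06 and 5.09, a difference of -1.91 (SE 0.47, adjusted p = 0.0152). Col14a1, a related chain, was at 0.748, 0.559 and 0.793 against 2.65, 2.82 and 2.76, a difference of -2.05 (SE 0.58, adjusted p = 0.0276). All 3 chains separated the hosts with no overlap.

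Col5a2 was at 3.84, 3.82 and 4.15 against 6, 5.86 and 6.19 (-2.08, SE 0.64, adjusted p = 0.0391). Col6a3 was at 5.87, 5.6 and 6.02 against 6.64, 6.68 and 7.03 (-0.96, SE 0.31, adjusted p = 0.0456). Col7a1 was at 5.54, 6.79 and 6.32 in A/J against 4.74, 4.48 and 5 in NSG, a difference of 1.48 (SE 0.33, adjusted p = 0.00843). The Col7a1 groups did not overlap, and A/J WGD+ vehicle 2 was the highest. Col4a5, a minor basement membrane chain (-0.95, adjusted p = 0.0321), was the 1 called chain whose groups overlapped, and Col11a1 (-1.13, adjusted p = 0.0321) was below 2 log2 in every library.

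The number of calls depended on single libraries. Leaving out A/J WGD+ vehicle 1, 2 or 3 gave 3, 0 and 3 called chains, and leaving out NSG WGD+ vehicle 1, 2 or 3 gave 3, 1 and 2. Col7a1 held in 5 of 6 leave-outs and was at 1.19 (adjusted p = 0.057 by limma) without A/J WGD+ vehicle 2. Col3a1, Col5a2, Col6a3 and Col14a1 were not called in any of the 6. Col12a1 was not called without A/J WGD+ vehicle 2 or without NSG WGD+ vehicle 2 or 3. Col11a1 was called only without NSG WGD+ vehicle 1, and Col4a5 only without A/J WGD+ vehicle 1 or NSG WGD+ vehicle 3. Fibroblast markers moved in the same direction, with 4 of 10 called lower at a summed 5.72 to 6.35 log2 in A/J against 7.01 to 7.34 in NSG, and adipocyte markers were called lower for 2 of 5, at 3.96 to 5.15 against 4.78 to 7.18, with Adipoq, Plin1 and Lep at 0 in the A/J libraries. Epithelial markers were called higher for 2 of 6, Epcam and Krt7, at 10.6 to 10.9 against 10 to 10.3. Endothelial markers were at 6.12 to 6.78 against 6.92 to 7.1, with Tek called lower by limma (-1.6, adjusted p = 0.00953). Skeletal muscle markers were at 9.36 to 9.51 against 8.13 to 8.66. Cartilage and bone markers were at 7.03 to 7.62 against 6.19 to 6.41, with Sox9 called higher (0.99). The fibroblast, epithelial, endothelial, skeletal muscle and cartilage sums did not overlap between the hosts. The part of these lists in the result was not tested. Of the 16 collagen-bound matrix genes 6 were lower, including the small proteoglycan Lum (-2.52, adjusted p = 0.00482), Tnxb (-1.57), the fibroblast-secreted Postn (-1.55) and Nid2 (-1.12). The gelatinase Mmp2 was lower (-1.9, adjusted p = 0.0492) among 10 degradation genes. Of 26 processing genes Plod3 (0.57), Crtap (0.5) and Ppib (0.42), which modify or fold the chains, were higher and Tll1 (-0.83), a procollagen protease, was lower. Ddr1 (0.59) was higher among 8 receptors.

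Under YM-155 fewer chains were called between the hosts, and whether the host difference changed with the drug was not tested. In WGD- tumours 1 chain was called lower in A/J, Col4a5 at 3.7, 4.2 and 3.43 against 4.73, 4.88 and 4.58 (-0.95, SE 0.28, adjusted p = 0.0435), where 2.76% of all genes were called lower, so this count is near the background. It held in 1 of 6 leave-outs: the count was 0 without A/J WGD- YM-155 library 1 or without NSG WGD- YM-155 library 1, 2 or 3, and 2, without Col4a5, when A/J WGD- YM-155 library 3 was left out. Of the listed genes P3h2 (-1.1), Nid2 (-1.04) and Lama4 (-0.91) were called lower in A/J, and the epithelial markers Krt7, Krt8 and Krt18 higher. In WGD+ tumours limma called 0 of 31 chains and 0.0362% of all genes, with 14 chains at an unadjusted p under 0.05 and 0 called by voom. The smallest p there belonged to Col6a3 (-1.32, SE 0.31, adjusted p = 0.117), Col5a1 (-1.49, SE 0.51, adjusted p = 0.262) and Col14a1 (-1.64, SE 0.58, adjusted p = 0.275). The share of all genes at an unadjusted p under 0.05 was not counted, here or below, so counts such as the 14 show no excess.

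The 4 host comparisons share no library, so their signs can be set side by side. Of the 31 tested chains 18 were lower in A/J in all 4, as were 25% of all 13826 genes, and 2 were higher in all 4, Col7a1 and Col11a2, as were 23.7% of all genes. Col3a1 ranged from -3.57 to -1.96, Col1a1 from -1.61 to -0.92 and Col6a3 from -2.08 to -0.87 over the comparisons. These are descriptions of direction and most of the values were not called.

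**Figure D3:**
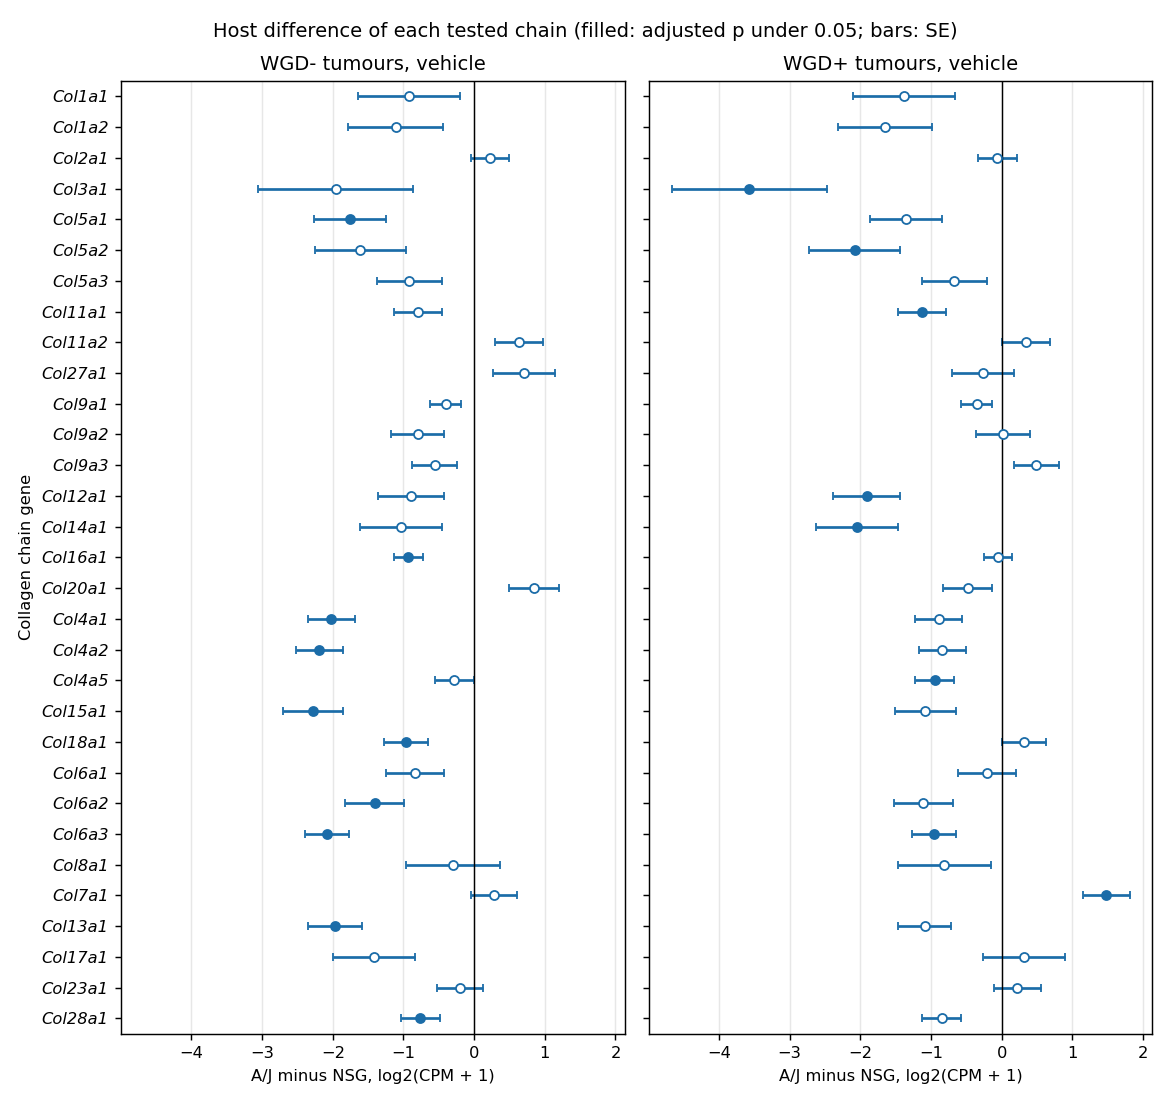
Difference of each tested collagen chain between hosts, A/J minus NSG in log2(CPM + 1), for WGD- and WGD+ tumours given vehicle, with bars for the SE and filled points for an adjusted p under 0.05. Of 31 points 26 and 24 lie left of 0, 10 are filled for WGD- tumours, and Col7a1 is the filled point on the right for WGD+ tumours.

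The effect of genome doubling was read first in A/J hosts given vehicle. There 6 of 31 chains were higher in WGD+ than in WGD- tumours and none was lower, against 6.3% of all genes called higher. They were Col4a1 and Col4a2, Col18a1, and the fibril-associated Col16a1, Col9a1 and Col9a3, while 7 of 10 fibrillar chains had negative differences of which none was called. The median over the 31 chains was 0.07, against 0.03 over all genes, so the chains as a whole did not lean one way. This comparison shares its A/J WGD- vehicle libraries with the host comparison above, and the same low values of Col4a1, Col4a2, Col16a1 and Col18a1 enter both.

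Col18a1 was at 8.63, 7.13 and 8.56 log2(CPM + 1) in WGD- and at 9.67, 9.57 and 9.79 in WGD+, a difference of 1.57 (SE 0.31, adjusted p = 0.00494). Col4a2 was at 8.05, 7.15 and 7.72 in WGD+, above the WGD- mean of 5.91 (SD 0.43, n = 3), a difference of 1.73 (SE 0.33, adjusted p = 0.00399). Col4a1 was at 8.57, 7.67 and 8.43 in WGD+, 1.51 above WGD- (SE 0.33, adjusted p = 0.00812). No WGD+ library of these 3 genes fell as low as the highest WGD- library. Col16a1 was at 7.92, 8.09 and 8.06, a difference of 0.96 (SE 0.2, adjusted p = 0.00494). Col9a3, best known from cartilage, was at 5.66, 3.94 and 5.57 in WGD- and 6.47, 5.87 and 6.01 in WGD+, a difference of 1.06 (SE 0.32, adjusted p = 0.036), and Col9a1 differed by 0.72 (SE 0.22, adjusted p = 0.0409). For Col9a3 the low library was again WGD- vehicle 2.

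Without A/J WGD- vehicle 1 and 2, which stand apart, limma called 0 of these chains, with 1 WGD- library left. The differences were then 1.45 for Col4a2 (adjusted p = 0.141), 1.3 for Col4a1 (adjusted p = 0.201), 1.12 for Col18a1 (adjusted p = 0.103), 0.6 for Col16a1 (adjusted p = 0.225) and 0.54 for Col9a3 (adjusted p = 0.351). Leaving out WGD- vehicle 3 instead raised the count to 13, and every other single leave-out gave 4 to 6. Liver markers were called lower in WGD+ for 4 of 4 tested, at 0.184 to 2.4 log2 against 3.93 to 10.5 in WGD-, and fibroblast markers for 2 of 10, at 5.72 to 6.35 against 5.69 to 8.02. Epithelial markers were called lower for 3 of 6, at 10.6 to 10.9 against 11.2 to 11.6. Endothelial markers were at 6.12 to 6.78 in WGD+ against 5.76 to 6.02 in WGD-, with 1 of 8, Esam, called higher, and lymphocyte markers at 0.371 to 1.75 against 2.34 to 3.15, with Cd8a called lower. Skeletal muscle markers were at 9.36 to 9.51 in WGD+ against 8.13 to 9.25, and Schwann cell markers at 7.87 to 8.26 against 7.31 to 7.8. The liver, epithelial, endothelial, lymphocyte, skeletal muscle and Schwann cell sums did not overlap between the forms. The part of these lists in the result was not tested.

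Among collagen-bound matrix genes in that comparison, 4 of 16 were higher in WGD+ and 3 lower. The higher ones were the basement membrane genes Nid2 (1.33, adjusted p = 0.00382), Lama4 (0.93), Lamc1 (0.9, adjusted p = 0.0029) and Lamb1 (0.8). The lower ones were Dcn (-2.93, adjusted p = 0.0347), Tnxb (-1.74) and Lum (-1.68), of which Dcn and Lum are proteoglycans of fibrillar matrix and are also on the fibroblast marker list. Of 26 processing genes 1, P3h3, was lower (-0.78), and of 8 receptors 1, Ddr1, was higher (0.58). The share of all genes called lower in that comparison is not given here.

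**Figure D4:**
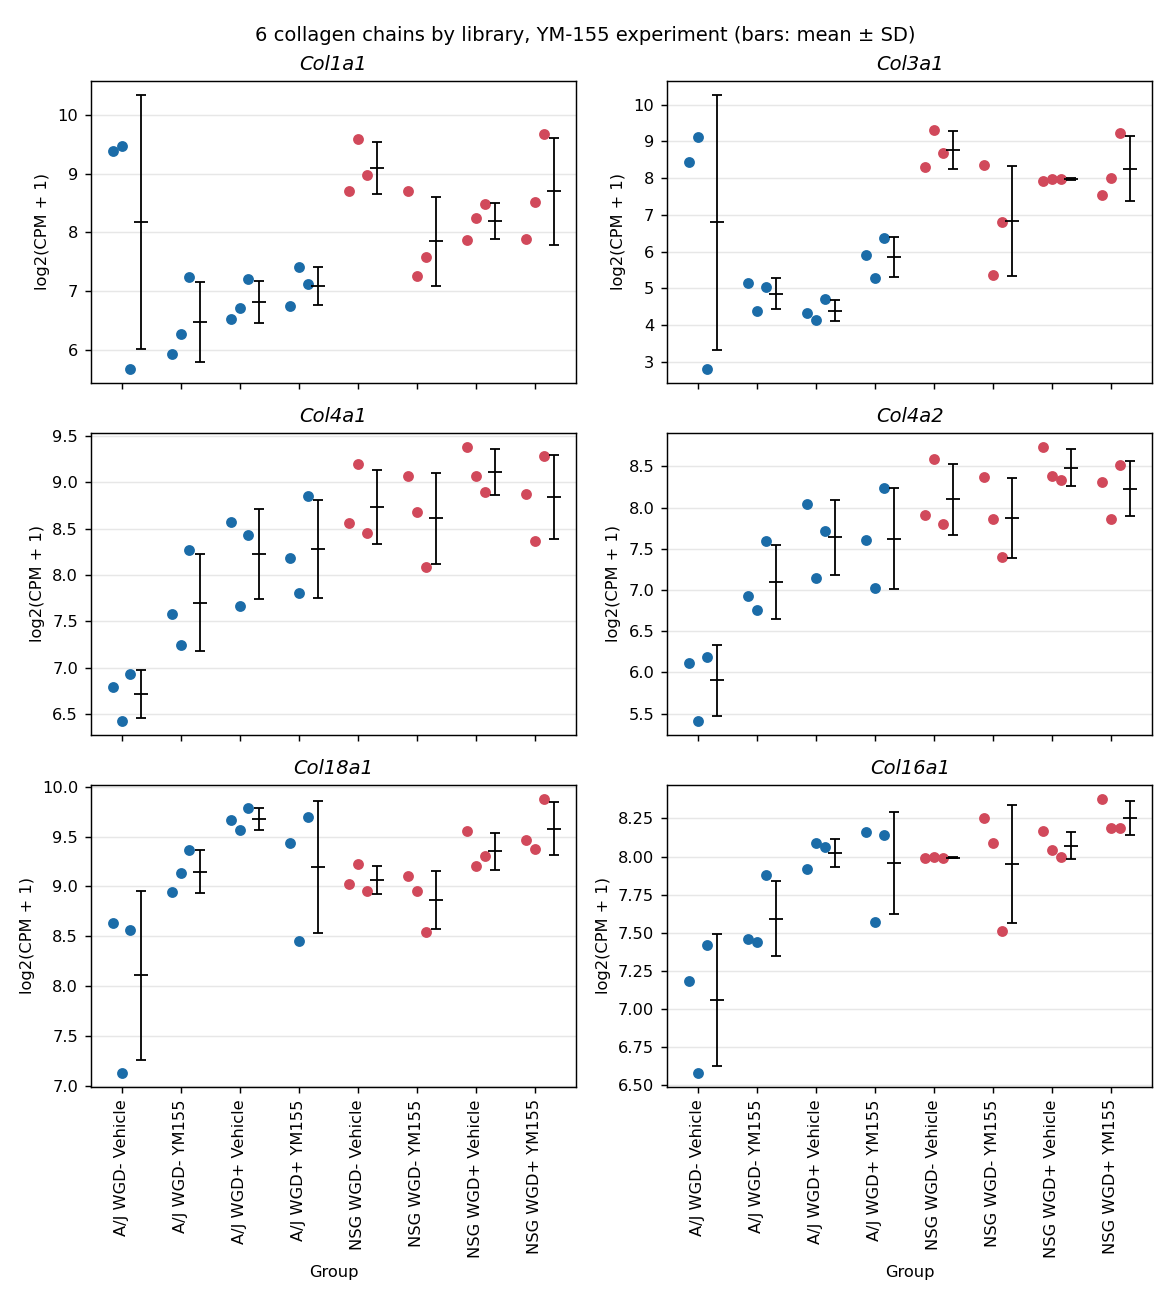
Level in log2(CPM + 1) of selected collagen chains in every library of the YM-155 experiment, by group, with 1 point per library and bars for the mean ± SD of the group. The A/J WGD- vehicle libraries are the lowest group for Col4a1 and Col4a2, and the same group spreads from 2.81 to 9.13 for Col3a1.

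In NSG hosts given vehicle 2 of 31 chains were higher in WGD+, where 0.897% of all genes were called higher. Col4a5 was at 4.29, 4.12 and 4.34 in WGD- and 6.06, 5.94 and 4.88 in WGD+, a difference of 1.38 (SE 0.28, adjusted p = 0.00948), and the third WGD+ library was the low one. Without NSG WGD+ vehicle 1 or 2 its adjusted p was 0.0644 and 0.0735. Col11a2, a minor fibrillar chain, was at 2.37, 2.61 and 2.66 against 4.25, 3.78 and 3.36, a difference of 1.25 (SE 0.34, adjusted p = 0.0447) that was not called when any 1 of the NSG WGD- or WGD+ vehicle libraries was left out. The count fell to 1 without NSG WGD- vehicle 1, 2 or 3 or WGD+ vehicle 3, and to 0 without WGD+ vehicle 1 or 2. P3h2, which modifies type IV collagen, was lower in WGD+ here (-1.23, adjusted p = 0.0371).

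Whether the effect of genome doubling differed between hosts under vehicle was tested as an interaction, and limma called 0 of 31 chains and 0% of all genes. At an unadjusted p under 0.05 there were 8 chains, with 0 by voom. Col16a1 had the smallest p (0.89, SE 0.28, adjusted p = 0.293), then Col4a2 (1.35, SE 0.46, adjusted p = 0.309) and Col18a1 (1.28, SE 0.44, adjusted p = 0.31), so the calls in A/J and not in NSG do not show a difference between hosts.

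Under YM-155 the forms differed in 0 of 31 chains in A/J hosts by limma, against 1.69% of all genes, with 3 chains at an unadjusted p under 0.05 and 0 by voom. Col6a1, a short chain of the beaded filament, was at 8.83, 8.88 and 8.54 in WGD- and 7.32, 7.05 and 7.35 in WGD+ (-1.51, SE 0.41, adjusted p = 0.0684), which did not overlap, followed by Col23a1 (-0.89, adjusted p = 0.189) and Col6a2 (-1.06, adjusted p = 0.236). In NSG hosts 1 chain was lower in WGD+, where 1.02% of genes were called lower: Col9a2, at 2.11, 1 and 2 in WGD- and 0, 0.417 and 0.185 in WGD+ (-1.5, SE 0.38, adjusted p = 0.0444). These are values of a few reads. The call was lost without NSG WGD- YM-155 library 1 or 3 or any 1 of the NSG WGD+ YM-155 libraries. Under YM-155 limma called P3h2 lower in WGD+ in A/J (-1.61, adjusted p = 0.0104) and NSG hosts (-2.46, adjusted p = 0.000271). In NSG hosts Serpinh1 (0.66) and Lum (2.01) were called higher.

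YM-155 itself was compared with vehicle in each form and host. In WGD- tumours of A/J hosts 1 chain was higher under YM-155, where 2.22% of all genes were called higher. This was Col4a2, at 6.11, 5.41 and 6.19 with vehicle and 6.93, 6.76 and 7.6 with YM-155 (1.19, SE 0.33, adjusted p = 0.0454), with no overlap. Its count was 0 without A/J WGD- vehicle 2, without YM-155 library 1 or without YM-155 library 3. It was 2 without vehicle 1, with Col4a2 at an adjusted p of 0.0522, 2 without YM-155 library 2, and 11 without vehicle 3. Without both libraries that stand apart, vehicle 1 and 2, limma called 0 chains and Col4a2 was at 0.91 (adjusted p = 0.492). As these vehicle libraries also enter the comparisons above, this is no separate evidence. Among the processing genes limma called Plod2 lower under YM-155 in A/J WGD- tumours (-2.51, adjusted p = 0.0408).

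In the other 3 settings limma called 0 of 31 chains, and voom called 0 as well. For WGD+ tumours in A/J hosts the call rate over all genes was 0%, with 2 chains at an unadjusted p under 0.05, and the smallest p belonged to Col23a1, a transmembrane collagen (-0.9, SE 0.33). For WGD- tumours in NSG hosts the rate was 0% too, with 10 chains under an unadjusted p of 0.05. There the smallest p belonged to Col14a1 (-1.69, SE 0.58, adjusted p = 0.863), followed by Col6a2 (-1.09, adjusted p = 0.882) and Col6a3 (-0.79, adjusted p = 0.889). For WGD+ tumours in NSG hosts the rate was 0.00723%, with 2 chains under an unadjusted p of 0.05, and the smallest values were those of Col4a5 (-0.71, adjusted p = 0.285), Col7a1 (0.69, adjusted p = 0.374) and Col9a1 (-0.45, adjusted p = 0.395).

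The antibody experiment compared the forms in A/J hosts a second time. With isotype antibody 1 of 29 chains was higher in WGD+, where 0.434% of all genes were called higher, and 1 was lower, where 0.665% were called lower. Col9a3 was at 5.02, 5.31 and 5.01 in WGD- and 5.9, 6.51 and 6.07 in WGD+, a difference of 1.05 (SE 0.23, adjusted p = 0.0411). Col12a1, which bridges type I fibres, was at 4.92, 4.31 and 5.47 against 3.26, 3.04 and 2.62, a difference of -1.92 (SE 0.43, adjusted p = 0.047). Both separated the forms without overlap, yet each leave-out of any 1 isotype library of either form gave 0 called chains. The matrix gene Tnxb (-2.22, adjusted p = 0.0335) and the collagenase Mmp13 (-2.06, adjusted p = 0.0496) were lower in WGD+. All 10 fibroblast markers had negative differences, none called, at a summed 5.88 to 7.45 log2 in WGD+ against 7.25 to 8.29 in WGD-. Epithelial markers were at 9.96 to 10.5 against 10.8 to 11.5, with 1 of 6, Krt18, called lower. Endothelial markers were at 5.49 to 6.64 against 6.74 to 7.81, macrophage markers at 6.32 to 8.06 against 8.65 to 9.44 and lymphocyte markers at 1.49 to 2.62 against 3.42 to 4.99, with none called. These 4 sums were lower in every WGD+ library than in every WGD- library, and the part of these lists in the result was not tested.

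With antibody to PD-L1, a ligand by which tumour cells restrain T cells, the forms differed in 0 of 29 chains by limma, against 0.701% of all genes, with 5 at an unadjusted p under 0.05 and 0 by voom. Col12a1 was at 5.73, 6.38 and 4.51 in WGD- and 3.83, 4.1 and 3.03 in WGD+ (-1.89, SE 0.43, adjusted p = 0.054), a difference close in size to the one with isotype. The count became 5 when WGD- anti-PD-L1 library 3 was left out. The matrix gene Tnxb was called lower in WGD+ with anti-PD-L1 by limma (-2.52, adjusted p = 0.0215). With antibody to CD8, the surface protein of cytotoxic T cells, limma called 0 of 29, against 1.57% of all genes, with 4 at an unadjusted p under 0.05 and 0 by voom. The smallest p belonged to Col4a5 (-1.49, SE 0.47, adjusted p = 0.102), Col8a1 (2.05, adjusted p = 0.198) and Col6a1 (-1.12, adjusted p = 0.207), and 1 chain was called without WGD+ anti-CD8 library 2. P3h2 was lower in WGD+ there (-1.78, adjusted p = 0.0431), and the lysyl oxidase Loxl3, a cross-linking enzyme, was higher (1.02, adjusted p = 0.017).

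Neither antibody was followed by a called change of any chain against isotype in either form, by limma or by voom. For anti-PD-L1 in WGD- tumours 0.00723% of all genes were called and 0 chains had an unadjusted p under 0.05. In WGD+ tumours 0% were called and 2 chains had one, Col4a1 (-0.75, SE 0.25) and Col4a2 (-0.67, SE 0.28). Col4a1 was at 7.85, 8.35 and 7.5 with isotype and 7.56, 7.13 and 6.77 with anti-PD-L1, which overlapped.

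For anti-CD8 in WGD- tumours, with 2 libraries, 0.00723% of all genes were called and 3 chains had an unadjusted p under 0.05, led by Col9a3 (0.78, SE 0.26, adjusted p = 0.368), Col4a5 (1.21, adjusted p = 0.381) and Col7a1 (-1.02, adjusted p = 0.411). For anti-CD8 in WGD+ tumours 0% were called and 9 chains had one, led by the type V chains Col5a1 (1.42, SE 0.42, adjusted p = 0.66) and Col5a3 (1.46, SE 0.44, adjusted p = 0.66) and by Col6a3 (1.25, SE 0.39, adjusted p = 0.66). Col1a1 was at 7.59, 6.17 and 7.97 with isotype and 9.62, 7.77 and 9.67 with anti-CD8, where the second library of each group was the low one and the groups overlapped. The 2 comparisons of each form share their isotype libraries.

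The time course compared the forms at day 8 and day 14 in A/J hosts. At day 8, 7 of 29 chains were lower in WGD+ and none was higher, where 2.92% of all genes were called lower. The 7 were all 3 tested chains of the beaded filament (Col6a1, Col6a2, Col6a3), the 2 main basement membrane chains Col4a1 and Col4a2, Col18a1 and Col16a1. Of the 29 chains 28 had a negative difference with a median of -1.43, against 0.03 over all genes. None of the 8 tested fibrillar chains was called, although 7 were negative.

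Col4a1 was at 9.27, 8.77 and 7.69 log2(CPM + 1) in WGD- and at 6.91, 7.12 and 6.37 in WGD+ at day 8, a difference of -1.78 (SE 0.35, adjusted p = 0.0281). Col4a2 was at 8.38, 8.02 and 7.02 against 6.28, 6.51 and 5.21, a difference of -1.81 (SE 0.38, adjusted p = 0.0324). In WGD- the first library was the highest for both and the third the lowest, still above all of WGD+. Col6a1 was at 8.73, 7.76 and 7.65 against 6.4, 5.23 and 6.3, a difference of -2.07 (SE 0.43, adjusted p = 0.0324). Col6a2 was at 8.3, 7 and 6.66 against 5.86, 4.18 and 5.56 (-2.12, SE 0.47, adjusted p = 0.0356), and Col6a3 at 7.6, 6.53 and 6.16 against 5.61, 4.45 and 4.77 (-1.82, SE 0.43, adjusted p = 0.0432). The 3 partner chains thus moved together and their groups did not overlap. Col18a1 was at 8.63, 8.74 and 8.84 against 6.91, 7.99 and 6.52 (-1.6, SE 0.35, adjusted p = 0.0341), and Col16a1 at 7.66, 7.3 and 7.94 against 6.65, 6.49 and 5.85 (-1.3, SE 0.28, adjusted p = 0.0324).

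The day 8 calls rested on few libraries. The count was 0 without WGD- day 8 library 1 or 2 or WGD+ day 8 library 1 or 3, 4 without WGD- day 8 library 3 and 7 without WGD+ day 8 library 2. These last 7 did not include Col6a1 (-1.7, adjusted p = 0.0513) or Col6a3 (-1.57, adjusted p = 0.0911). Of the 6 leave-outs, Col6a1 was called in 0, Col6a3, Col16a1 and Col18a1 in 1, and Col4a1, Col4a2 and Col6a2 in 2. Leaving out WGD- day 8 library 1 and WGD+ day 8 library 3, which stand apart, gave 0 called chains with the same directions, Col4a1 at -1.22 (adjusted p = 0.142), Col6a1 at -1.89 (adjusted p = 0.142) and Col18a1 at -1.34 (adjusted p = 0.166). It was also 0 with no filter on low values, with the replicate block and with only the groups compared, and 3 by voom. Fibroblast markers had 10 of 10 negative differences with 1 called, at a summed 5.2 to 7.57 log2 in WGD+ against 7 to 10.2 in WGD-, and skeletal muscle markers had 6 of 6 positive with none called, at 5.93 to 14.2 against 5.66 to 11. Epithelial markers were at 9.49 to 10.1 in WGD+ against 10.2 to 11 in WGD-, and lymphocyte markers at 2.6 to 2.74 against 0.826 to 1.81, with none called and no overlap between the forms. The part of these lists in the result was not tested.

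Genes that process collagen were lower in WGD+ at day 8 as well, with 7 of 25 called and none higher. The leading ones were the prolyl 4-hydroxylase P4ha2 (-1.71, adjusted p = 0.0289), the lysyl hydroxylase Plod1 (-1.68, adjusted p = 0.0281), P4hb (-1.32, adjusted p = 0.0251) and the procollagen protease Bmp1 (-1.25, adjusted p = 0.0188). Of 16 collagen-bound matrix genes 6 were lower, led by the laminins Lama4 (-1.87, adjusted p = 0.0251) and Lama5 (-1.61) and the basement membrane proteoglycans Hspg2 (-1.59) and Agrn (-1.37). Of 10 degradation genes Mmp14, a membrane-bound collagenase, was lower (-0.99), and of 7 receptors Itgb1, the shared integrin subunit, was lower (-1.13).

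At day 14 limma called 0 of 29 chains between the forms, against 0.445% of all genes, with 4 at an unadjusted p under 0.05 and 0 by voom. The smallest p belonged to Col7a1 (-0.78, SE 0.26, adjusted p = 0.179), Col16a1 (0.81, SE 0.28, adjusted p = 0.194) and Col17a1, the transmembrane chain of hemidesmosomes (-1.77, SE 0.66, adjusted p = 0.218). Col16a1 was at 7.24, 6.97 and 7.14 in WGD- and 7.51, 7.69 and 8.56 in WGD+, with no overlap.

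From day 8 to day 14, 3 of 29 chains rose in WGD+ tumours and none fell, where 7% of all genes were called higher, so this share is not far from the background. Col16a1 rose by 1.59 (SE 0.28, adjusted p = 0.014), Col9a3 by 1.86 (SE 0.4, adjusted p = 0.0204) and Col18a1 by 1.53 (SE 0.35, adjusted p = 0.0229). Col9a3 was at 4.89, 5.38 and 4.15 at day 8 and 6.61, 6.58 and 6.81 at day 14, and Col18a1 reached 8.17, 8.6 and 9.24 at day 14. For all 3 every day 14 library was above every day 8 library. The count was 0 without WGD+ day 14 library 3, 1 without day 14 library 2 or without day 8 library 1 or 3, and 1, Col16a1 (1.35, adjusted p = 0.0314), without day 8 library 3 and WGD- day 8 library 1, which stand apart. Skeletal muscle markers were negative for 6 of 6 with none called, at 6.28 to 6.83 at day 14 against 5.93 to 14.2 at day 8. Epithelial markers were called higher for 2 of 6, Epcam and Cdh1, at 10.3 to 11 against 9.49 to 10.1, and the part of these lists was not tested.

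Of 25 processing genes 9 rose over the same days, led by Plod1 (1.61, adjusted p = 0.0172), the complex partners Crtap (1.31, adjusted p = 0.0222) and Ppib (1.3, adjusted p = 0.0142), and P4ha2 (1.26). Of 16 bound matrix genes 4 rose, Lama5 (1.43, adjusted p = 0.0186), Agrn (1.19), Hspg2 (1.09) and Lamc1 (1.01). Mmp14 rose among 10 degradation genes (1.23), and Ddr1 (1.34) and Itgb1 (1) among 7 receptors.

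In WGD- tumours limma called 0 of 29 chains between the days, against 0.846% of all genes, with 6 at an unadjusted p under 0.05 and 0 by voom. Col4a1 was at 7.38, 7.12 and 6.95 at day 14, below all 3 day 8 libraries (-1.43, SE 0.35, adjusted p = 0.102), as was Col4a2 at 6.56, 6.2 and 6.36 (-1.43, SE 0.38, adjusted p = 0.136), and Col15a1 was at -1.36 (SE 0.41, adjusted p = 0.197). Without WGD- day 8 library 3, 1 chain was called.

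The change of the form difference from day 8 to day 14 was tested as an interaction, and 4 of 29 chains were called, all with a higher WGD+ minus WGD- difference at day 14, where 1.59% of all genes were called in that direction. Col4a2 had 2.35 (SE 0.54, adjusted p = 0.0414), from -1.81 at day 8 to 0.55 at day 14. Col4a1 had 2.29 (SE 0.5, adjusted p = 0.0331), from -1.78 to 0.51, and Col18a1 2.28 (SE 0.5, adjusted p = 0.0331), from -1.6 to 0.68. Col16a1 had 2.11 (SE 0.4, adjusted p = 0.0219) and was the steadiest, called in 11 of 12 leave-outs. Lymphocyte markers moved the other way in the same test, with 4 of 4 tested negative and Cd8a called (-4.12, SE 0.82, adjusted p = 0.025). Their summed level at day 14 was 0.611 to 2.66 log2 in WGD+ against 3.74 to 6.52 in WGD-, and at day 8 it was 2.6 to 2.74 against 0.826 to 1.81. Their part in the result was not tested.

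The number called was 0 without WGD- day 14 library 2. It was 1 without WGD- day 8 library 2, WGD- day 14 library 1, WGD+ day 8 library 1 or 3, or WGD+ day 14 library 2 or 3, and it was also 1, Col16a1 (1.86, adjusted p = 0.0367), without the libraries that stand apart. Over the 29 chains 27 were positive with a median of 1.14. The matching values over all genes are not given here, so this count does not set the chains apart. Among the surrounding genes 6 of 25 processing genes and 3 of 16 bound matrix genes were called, all positive, including Crtap (1.86), Bmp1 (1.6, adjusted p = 0.0184), Lamc1 (1.77, adjusted p = 0.0267) and Lamb1 (1.73).

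**Figure D5:**
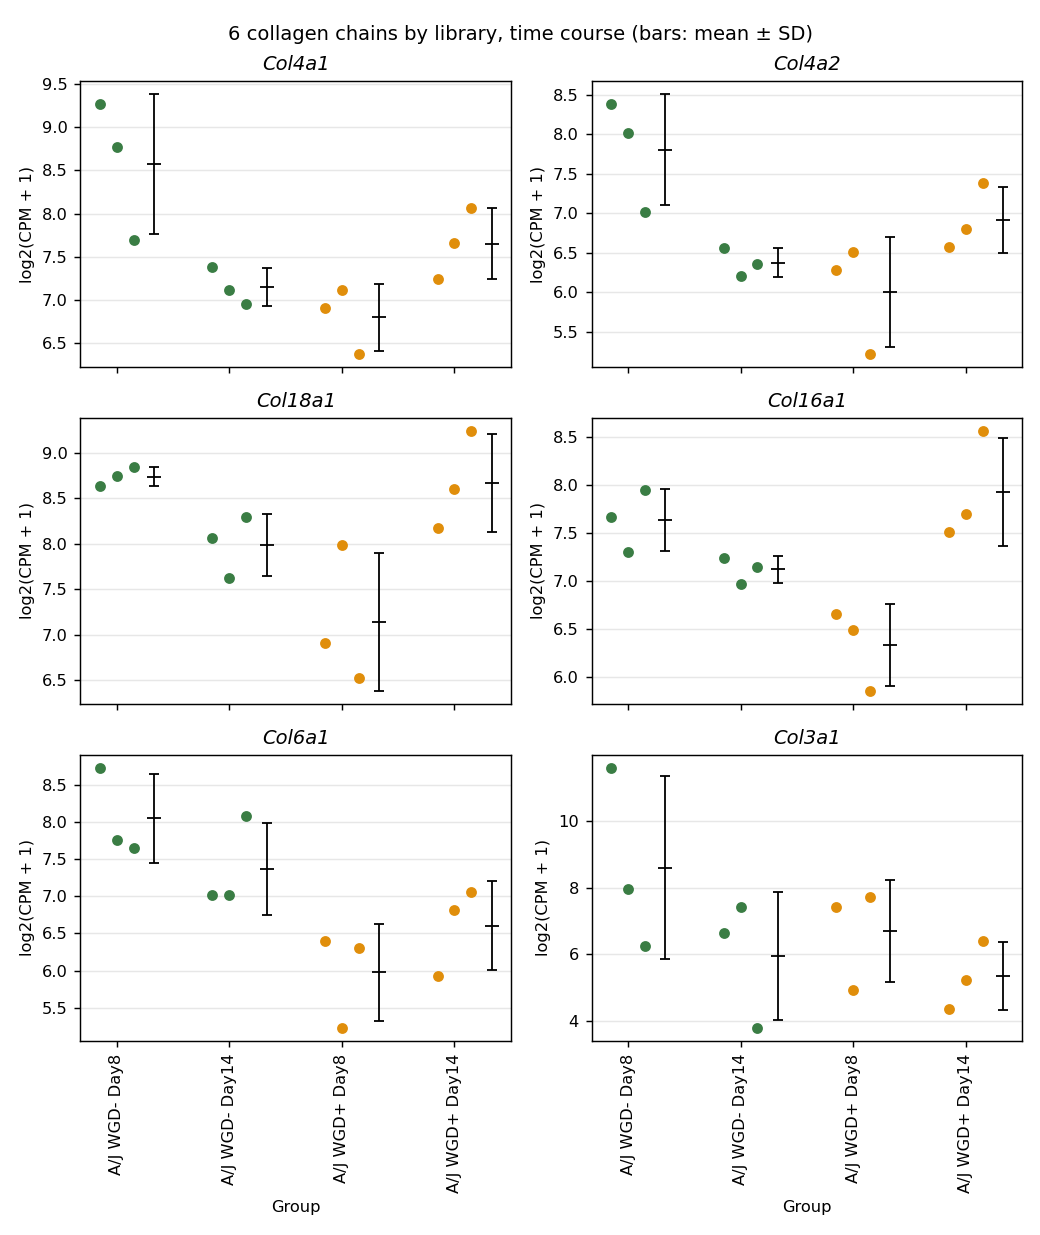
Level in log2(CPM + 1) of selected collagen chains in every library of the time course, by form and day, with 1 point per library and bars for the mean ± SD of the group. For Col4a1, Col4a2, Col6a1, Col16a1 and Col18a1 all WGD+ day 8 libraries lie below all WGD- day 8 libraries.

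The forms were thus compared in 9 settings that share no library, 3 of them A/J tumours after 14 days of vehicle or isotype or at day 14 of the time course. In those 3, the WGD+ minus WGD- difference was 1.51, 0.72 (adjusted p = 0.157) and 0.51 (adjusted p = 0.505) for Col4a1, and 1.57, 0.7 (adjusted p = 0.213) and 0.68 (adjusted p = 0.362) for Col18a1. It was 1.06, 1.05 and 0.77 (adjusted p = 0.369) for Col9a3 and -1.42 (adjusted p = 0.0551), -1.92 and -1.2 (adjusted p = 0.491) for Col12a1. For Col1a1 it was -1.36 (adjusted p = 0.221), -1.44 (adjusted p = 0.245) and -0.85 (adjusted p = 0.736). The signs of these selected chains were the same in the 3 settings, and the calls were not. Other chains changed sign, such as Col17a1, at 0.87 with vehicle and -1.77 at day 14. The share of all chains or genes with equal signs in the 3 settings was not counted.

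Over the 9 settings Col16a1 and Col18a1 were higher in WGD+ in 8, day 8 being the exception for both. Each was called higher in 1 setting and lower in 1. Col12a1 was lower in 8 of 9, from -1.92 to 0.42. The share of all genes that agreed in 8 of 9 was not counted. Col6a1 was lower in all 9, from -2.07 to -0.21 with a median of -1.12, and was called in 1. It was the single such chain among 27 tested in every table, and 4.09% of 12844 genes were lower in all 9, so 1 chain is near the background share. Across all 25 comparisons 22 chains were called at least once, with 45 calls in all, and 14 comparisons held none. The share of all genes called at least once was not counted, so these counts do not set the chains apart.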

How the data were processed

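The deposited tables hold log2 values made by the authors, log2(CPM + 1) with TMM scaling per table, per the file headers and the values. The submitters' processing notes name STAR 2.5.1b, mm10 and edgeR, while annotation and counting tool were not given in the sources used here. Whole reads were recovered from the values (100% of values within 0.1 read in every library), which gave the depths. Gene symbols turned into dates were dropped, at most 0.223% of reads.

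Each table was fitted with limma 3.58.1 in R 4.3.3, with a mean per group, all groups of the table, a trend and robust variance prior, and genes above 1 CPM in at least 3 libraries. P-values were two-sided and adjusted by Benjamini-Hochberg over all genes tested, and a call is an adjusted p under 0.05. Differences are on the log2(CPM + 1) scale, which understates changes of low genes. Tables were normalized separately and tested separately. The script was tested on simulated data.

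The members and lists were chosen with earlier results of these data known. All called chains are named, up to 12 in each direction. Where none was called, up to 3 chains with the smallest unadjusted p are given as values. Up to 4 called genes of a list are named where that list is described, and some other called list genes are left out. Counts at an unadjusted p are given beside counts of 0, with no matching share of all genes. Levels per length used the exon union or the longest transcript of GENCODE M21. Alternatives were no filter, a pseudocount of 0.5, quantile normalization, only the groups compared, a replicate block, voom on recovered reads, leaving out each library, and leaving out libraries that stand apart. Replicate numbers were not taken as pairs, because the labels do not tie them to a litter, batch or day and in no comparison with 3 pairs did all same-numbered pairs correlate above 0.1 in their deviations from group means (-0.483 to 0.476). The forms under anti-CD8, with 2 pairs, had correlations of 0.396 and 0.461. Between the forms at day 14 the same-numbered library was the best match for 6 of 6 libraries, at 0.092 to 0.159. Between the hosts of WGD- vehicle tumours it was so for 5 of 6, and between the forms at day 8 for 0 of 6. A batch shared by number was not tested.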

Additional observations from a re-analysis of the deposited data

Results flagged for a closer look

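The effect of genome doubling on 4 chains differed between day 8 and day 14 by the interaction test in limma. The difference between the WGD+ minus WGD- values was 2.35 for Col4a2 (SE 0.54, adjusted p = 0.0414), 2.29 for Col4a1 (SE 0.5, adjusted p = 0.0331), 2.28 for Col18a1 (SE 0.5, adjusted p = 0.0331) and 2.11 for Col16a1 (SE 0.4, adjusted p = 0.0219). Col4a1, Col4a2, Col16a1 and Col18a1 had all been called lower in WGD+ at day 8 and were positive without a call at day 14. Without WGD- day 14 library 2 none of the 4 was called, and without the libraries that stand apart Col16a1 alone was (1.86, adjusted p = 0.0367). In the same test the lymphocyte marker Cd8a was at -4.12 (SE 0.82, adjusted p = 0.025), and the part of lymphocyte markers in the result was not tested.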

How the results depend on the processing

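No called chain changed sign under any alternative run. Of 45 calls, a pseudocount of 0.5 kept 44, quantile normalization 40, the replicate block 32, voom 32, only the groups compared 27 and no filter 26. Without the libraries that stand apart 19 were kept and 24 lost, and over all single leave-outs 138 were kept and 156 lost. Voom moved the median of all genes by more than 0.1 in 6 comparisons, to between -0.17 and -0.11, so its counts are relative to that shift.

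In the host comparison of WGD- tumours with YM-155 (1 chain) the count was 0 with no filter, 0 with quantile normalization, 2 with only the groups compared and 5 without the libraries that stand apart. For WGD+ tumours with vehicle (8) it was 17 with only the groups compared and 14 without libraries that stand apart. For the forms in A/J hosts it was 2 and 0 with vehicle (6) and 1 and 1 with YM-155 (0) under those alternatives. In NSG hosts with vehicle (2) it was 1 with quantile normalization and 6 with only the groups compared, and with YM-155 (1) it was 0 with no filter, a pseudocount of 0.5 or voom. For YM-155 against vehicle in A/J WGD- tumours (1) it was 2 with a pseudocount of 0.5 and 0 with no filter, quantile normalization, only the groups compared, voom or without libraries that stand apart. With isotype (2) it was 0 with no filter or voom and 1 with quantile normalization. With only the groups compared it was 1 for the forms under anti-CD8 (0) and 2 for anti-CD8 in WGD- tumours (0). For the forms at day 8 (7) it was 0 with no filter, only the groups compared or without libraries that stand apart, and 3 by voom. From day 8 to day 14 in WGD+ tumours (3) it was 1 without libraries that stand apart. For the change of the form effect by day (4) it was 1 with no filter, 2 by voom and 1 without libraries that stand apart. The cause was not tested.

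Leaving out 1 library at a time gave 8 to 14 called chains for the host comparison of WGD- tumours with vehicle and 0 to 2 with YM-155, and 0 to 3 for WGD+ tumours with vehicle. Between the forms it gave 4 to 13 in A/J and 0 to 1 in NSG hosts with vehicle, 0 to 1 in NSG hosts with YM-155, 0 to 0 with isotype, 0 to 5 with anti-PD-L1, 0 to 1 with anti-CD8 and 0 to 7 at day 8. It gave 0 to 11 for YM-155 in A/J WGD- tumours, 0 to 1 and 0 to 4 between days in WGD- and WGD+ tumours, and 0 to 4 for the change by day.

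With the replicate block the count was 11, 8 and 6 for the host comparisons of WGD- and WGD+ tumours with vehicle and the forms in A/J hosts with vehicle. It was 1 for the forms in NSG hosts with vehicle, 3 for YM-155 in A/J WGD- tumours, 1 with isotype, 0 for the forms at day 8 and 2 for the change by day. The labels give the replicate numbers no further meaning, and a batch shared by number was not tested.

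Depth limits the low chains: 1 read was worth 0.134 to 0.358 CPM in the YM-155 experiment, so values of Col9a2, Col11a1, Col13a1 and Col28a1 rest on few reads. With 2 or 3 libraries a group and Col1a1, Col1a2 and Col3a1 among the most variable genes, a missed threshold does not show that levels were equal.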
